A study of Mus musculus with 74 samples.

Results

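The 6 arrays described here, of 74 in the series, compared thymocytes taken from DO11.10 mice 3 h after they were given antigenic peptide with thymocytes of uninjected DO11.10 mice. They were chosen by their labels, and no measured value entered the choice. DO11.10 is a T cell receptor transgene whose receptor recognises a peptide of chicken ovalbumin on class II MHC, and both RNAs of every array carried it. Each array is a 2-colour hybridisation of injected and uninjected total thymocyte RNA, and 3 arrays held the injected RNA in Cy5 and 3 in Cy3. The comparisons below also use 6 arrays of thymocytes taken at 6 h and 6 arrays taken at 12 h after peptide, each over uninjected thymocytes, and 8 arrays of the DO11.10 T cell hybridoma, a tumour-derived line, carrying the empty retrovirus MSCV and treated with PMA and ionomycin for 2.5 h, each over untreated hybridoma cells. The sources used here give neither the identity, dose and route of the peptide nor the strain, age and sex of the mice or the number of animals behind an array.

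Most thymocytes are immature cells of the thymic cortex that carry both CD4 and CD8. A strong signal through the T cell receptor at this stage leads to negative selection, in which the cell dies, and an injected peptide that the transgenic receptor recognises imposes that signal on many cells together. Among the genes known from such signals are Nr4a1, the gene of the orphan nuclear receptor Nur77, and Bcl2l11, the gene of the death-promoting Bcl2 relative Bim. In resting thymocytes the class IIa histone deacetylase HDAC7, bound to DNA through the transcription factor MEF2D, is known to hold Nr4a1 down.

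All values are log2 ratios of peptide-injected over uninjected thymocytes, centred on each array's median, so 1 is a doubling in level. The log base and the direction of the ratios are assumed, because the sources used here do not give them. The direction rests on a rise of Nr4a1, Egr1 and Cd69 being presumed after a receptor signal, and these were above 0 in both dye orientations. Their own direction is therefore not a result. The arrays hold 16463 probes, and over all of them the median fitted log2 change was -0.0037. The files hold ratios only, so the level of thymocyte markers, signal over background and depth were not measured, and the number of arrays limits the precision. The 6 arrays were grouped here into slide sets, which the labels do not give. Slides 13-3 and 13-4 (arrays 1 and 2) correlated with slides 13-5 to 13-8 (arrays 3 to 6) at r = 0.064 to 0.262 over probes, against 0.381 to 0.63 among arrays 3 to 6. Arrays 1 and 2, of opposite dye orientation, correlated at -0.188 with each other. A probe that is said to be called had a Benjamini-Hochberg adjusted p under 0.05 in limma, fitted to all probes with a term for dye orientation, and rose and fell are used of called probes alone.

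Within 3 h of peptide a strong group of receptor-induced genes rose and markers of cortical thymic epithelium fell. The partner RNA came from uninjected mice, so effects of the injection itself cannot be told apart from those of the peptide. Of the 16463 probes 446 were called (2.71%), 246 higher (1.49%) and 200 lower (1.21%). At least 2-fold changes were lopsided, with 55 probes higher and 9 lower. Of the 246 higher probes 234 were above 0 on all 6 arrays, and of the 200 lower probes 189 were below 0 on all 6, beside 10.3% of all probes that lay on a single side of 0 on all 6. Slides 13-5 to 13-8 alone gave 1447 calls (8.79%), with 590 probes higher (3.58%) and 857 lower (5.21%), and 422 of the 446 were among them. Leaving out array 3, 4, 5 or 6 left 152, 155, 100 or 124 calls. Of the 87 called genes among the 95 that the naming rule gave, 44 kept their call whichever array was left out. In bulk RNA of total thymocytes, fewer cells of a type and less RNA per cell cannot be told apart.

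**Figure D1:**
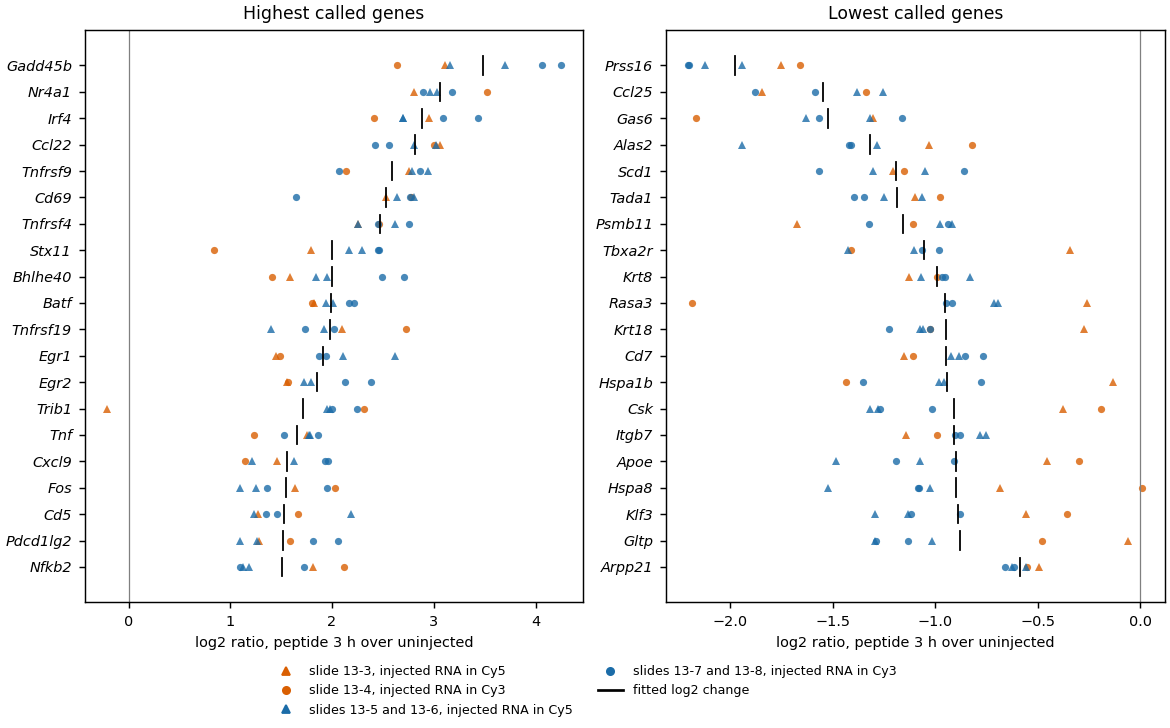
Log2 ratio of peptide 3 h over uninjected thymocytes (horizontal axis) on each of the 6 arrays for the 20 highest and the 20 lowest called genes (rows), with triangles and circles for the dye of the injected RNA, colours for the slide sets and a black bar for the fitted log2 change. Gadd45b leads at 3.49 and Prss16 is lowest at -1.98, and Trib1 and Rasa3 each have a single array far from the others.

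The orphan nuclear receptor, Egr and Nab genes were the list with the highest median. Of 9 measured genes 5 rose, 0 fell and 4 were not called, with a median log2 change of 1.31. Nr4a1 stood at 2.81 at the lowest, 2.99 at the median and 3.52 at the highest of the 6 arrays, high in both dye orientations and both slide sets. It rose 8.37-fold (log2 change 3.06, SE 0.09, adjusted p = 2.89e-05). Its relative Nr4a2 lay between 0.98 and 2.05 with a median of 1.44 and rose 2.77-fold (SE 0.09, adjusted p = 0.000382). Nr4a3 was not called (1.31, SE 0.41, adjusted p = 0.167), and its arrays split by slide set. It read 3.29 and 2.28 on slides 13-3 and 13-4 and 0.24 to 0.94 on slides 13-5 to 13-8.

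The early growth response genes encode zinc finger transcription factors that are switched on within minutes of receptor signals. Egr1 ranged over 1.45, 1.91 and 2.62 (lowest, median and highest array) and rose 3.77-fold (SE 0.15, adjusted p = 0.00138). Egr2 ranged over 1.55, 1.76 and 2.38 and rose 3.62-fold (SE 0.11, adjusted p = 0.000367). Nab2, a corepressor that binds EGR proteins, ranged over 0.86, 1.41 and 1.53 and rose 2.4-fold (SE 0.11, adjusted p = 0.00242). The remaining members were not called. Egr3 stood at 0.13 (adjusted p = 0.714), Egr4 at 0.14 (adjusted p = 0.694) and Nab1 at 0.59 (adjusted p = 0.0847). Nr4a1, Nr4a2, Egr1, Egr2 and Nab2 were called in every fit that left out 1 array.

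The promoter windows of Nr4a1, Irf4, Batf and Egr2, among the most raised genes of this list and of the immediate early list, are printed because these genes rose together (RefSeq, build GRCm38.p6, 250 bases before to 50 after the gene's start, read 5′ to 3′). They lie at chr15:101266596-101266895 for Nr4a1, chr13:30748983-30749282 for Irf4, chr12:85686470-85686769 for Batf and chr10:67535249-67535548 for Egr2, all on the plus strand. Bhlhe40 ranked with them and is named only. Egr2 has 5 listed windows, of which the first is shown. Capitals mark TGCGTCA, the EGR motif GCGNGGGCG and the NF-kB motif, each searched on both strands.
Nr4a1: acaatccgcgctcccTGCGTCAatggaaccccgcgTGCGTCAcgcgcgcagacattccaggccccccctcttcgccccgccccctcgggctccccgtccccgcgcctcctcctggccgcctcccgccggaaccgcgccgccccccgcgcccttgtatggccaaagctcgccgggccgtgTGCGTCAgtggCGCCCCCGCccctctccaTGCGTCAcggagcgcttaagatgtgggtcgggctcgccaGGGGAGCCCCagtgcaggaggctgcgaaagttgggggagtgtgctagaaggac
Irf4: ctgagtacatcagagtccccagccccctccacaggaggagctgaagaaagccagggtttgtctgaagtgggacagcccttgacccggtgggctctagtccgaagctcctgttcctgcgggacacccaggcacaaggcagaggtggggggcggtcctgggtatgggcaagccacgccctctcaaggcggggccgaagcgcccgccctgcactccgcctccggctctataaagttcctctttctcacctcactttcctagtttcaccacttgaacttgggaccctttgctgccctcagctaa
Batf: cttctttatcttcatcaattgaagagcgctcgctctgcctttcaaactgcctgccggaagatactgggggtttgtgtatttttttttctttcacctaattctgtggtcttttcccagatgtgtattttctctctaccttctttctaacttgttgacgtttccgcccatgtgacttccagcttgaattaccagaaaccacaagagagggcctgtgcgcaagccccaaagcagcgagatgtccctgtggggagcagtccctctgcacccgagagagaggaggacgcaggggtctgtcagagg
Egr2: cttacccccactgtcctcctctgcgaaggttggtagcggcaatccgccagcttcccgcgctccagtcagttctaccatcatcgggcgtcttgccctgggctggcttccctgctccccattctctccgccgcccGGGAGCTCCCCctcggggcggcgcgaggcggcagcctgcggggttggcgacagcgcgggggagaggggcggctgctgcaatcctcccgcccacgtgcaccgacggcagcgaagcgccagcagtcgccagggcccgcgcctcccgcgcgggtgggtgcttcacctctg
The Nr4a1 window held TGCGTCA at 4 places, beginning at positions -235, -215, -71 and -42 from the start, with an EGR match from -60 to -52 and an NF-kB match across the start. TGCGTCA was added to the search after this window was read. The Egr2 window held an NF-kB match that could be read in 2 registers shifted by 1 base. The Irf4 and Batf windows held no match to any motif searched.

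Over all genes with a window, those of chromosome 18 left out, the motifs were spread as follows. The NF-kB motif was in 26 of 174 higher genes with a window (14.9%), in 9 of the 37 that rose at least 2-fold (24.3%) and in 11 of 136 lower genes (8.09%), beside 1025 of the 10584 array genes with a window (9.68%). The EGR motif was in 11.5% of higher and 11.8% of lower genes, beside 8.99% of all. TGCGTCA was in 4.6% of higher genes beside 3.26% of all, and the AP-1 motif TGANTCA in 7.47% beside 6.66%. The MEF2 motif was in 8 of the 174 higher genes (4.6%) and 3 of the 136 lower ones (2.21%), beside 2.09% of all. The cAMP response element TGACGTCA was in 2.87% of higher genes and 2.73% of all, and the CArG box in 1.15% and 1.47%. These are descriptions of letters in a 300-base window and were not tested.

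Among AP-1 and other immediate early transcription factor genes 10 of 26 rose, 0 fell and 16 were not called, with a median of 0.35. Irf4, an activation-linked factor of lymphocytes, was the most raised. It read 2.41, 2.82 and 3.43 at the lowest, median and highest array and rose 7.36-fold (log2 change 2.88, SE 0.13, adjusted p = 0.000115). Bhlhe40, a transcriptional repressor, read 1.41, 1.90 and 2.71 and rose 3.99-fold (SE 0.16, adjusted p = 0.00193). Batf, an AP-1 family member without an activation domain, was among the tightest, at 1.80, 1.98 and 2.22, and rose 3.98-fold (SE 0.08, adjusted p = 5.96e-05). Fos, the classical AP-1 subunit, read 1.09, 1.5 and 2.03 and rose 2.93-fold (SE 0.11, adjusted p = 0.00103). The AP-1 subunit genes Junb (1.32) and Fosl2 (1.30), the growth regulator Myc (1.13), the cAMP-responsive repressor Crem (1.10) and the immediate early genes Ier2 (0.80) and Ier3 (0.47) rose as well. Jun itself stood at 0.30, Fosb at 0.22 and Nfatc1 at 0.05, and none of them was called.

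Some genes that dampen signals of various kinds rose alongside. Of 24 feedback phosphatase and signal inhibitor genes 6 rose (1.49% of all probes did), 0 fell and 18 were not called (median 0.16). Spry1, an inhibitor of Ras signalling, read 1.13, 1.40 and 1.52 and rose 2.59-fold (SE 0.08, adjusted p = 0.000318). Rgs1, which switches off G protein signals, rose by 0.97, and the MAP kinase phosphatase genes Dusp1 by 0.81 and Dusp4 by 0.78. These 3 calls each rested on 6 arrays of which array 1 was below 0, and each held in 1 of the 6 fits that left out an array. Zfp36, whose product destabilises cytokine mRNA, rose by 0.71 and the cytokine signal inhibitor Socs3 by 0.54. The receptor's own proximal signalling genes moved little, with 1 of 21 higher, 1 lower and a median of 0.01. Plcg1, the phospholipase of the receptor pathway, rose by 0.64. Csk, the kinase that restrains Lck, fell by 0.91 (SE 0.17, adjusted p = 0.0447), a call that held in 2 of the 6 fits without 1 array. The CD3 genes Cd3d (-0.02), Cd3e (0.02) and Cd3g (0.11) were not called.

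Surface receptors of activated T cells were prominent. Of 24 activation and costimulatory receptor genes 8 rose, 0 fell and 16 were not called (median 0.31). Cd69, the early activation antigen that retains cells in lymphoid tissue, read 1.65, 2.70 and 2.80 at the lowest, median and highest array and rose 5.76-fold (log2 change 2.53, SE 0.15, adjusted p = 0.000389). The TNF receptor family genes Tnfrsf4 (OX40) and Tnfrsf18 (GITR) read 2.25, 2.46 and 2.76 and 1.19, 1.39 and 1.54, and rose 5.53-fold (adjusted p = 2.89e-05) and 2.63-fold (adjusted p = 0.000115). Cd5, a receptor that scales with the strength of the receptor signal in thymocytes, read 1.23, 1.41 and 2.18 and rose 2.88-fold (SE 0.13, adjusted p = 0.00216). Its relative Cd6 rose by 1.07, the inhibitory ligand gene Cd200 by 0.95, the maturation marker Cd83 by 0.71 and the adhesion receptor Cd2 by 0.38. Tnfrsf9 (4-1BB) has 2 probes that disagree. The first in file order was not called (0.17, adjusted p = 0.505), and the other read 2.07, 2.77 and 2.94 and rose 6.03-fold (2.59, SE 0.11, adjusted p = 0.000107). The inhibitory receptor Pdcd1 (0.20, adjusted p = 0.532), Il2ra (0.59), Cd28 (0.29) and Ctla4 (-0.04) were not called.

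Cytokine and chemokine genes responded in part. Of 18 cytokine and TNF family ligand genes 3 rose, 0 fell and 15 were not called (median 0.16). Tnf, the gene of the inflammatory cytokine TNF, read 1.23, 1.76 and 1.86 and rose 3.15-fold (SE 0.09, adjusted p = 0.000255). The related lymphotoxin gene Lta rose by 0.83, and the RANK ligand gene Tnfsf11 rose by 0.44, which held in 1 of the 6 fits without 1 array. Il2 (0.68), the T cell growth factor gene, and the death ligand gene Fasl (0.37) were not called. Of 20 chemokine and chemokine receptor genes 6 rose, 1 fell and 13 were not called (median 0.23). Ccl22, a ligand of Ccr4 that activated dendritic cells make, read 2.42, 2.91 and 3.06 and rose 7.04-fold (2.81, SE 0.09, adjusted p = 2.89e-05). Cxcl9, an interferon-gamma-induced ligand of Cxcr3, read 1.15, 1.55 and 1.96 and rose 2.94-fold (SE 0.12, adjusted p = 0.00148). The monocyte attractant Ccl2 rose by 1.19 (held in 1 of 6 fits without 1 array), Cxcl10 by 1.00, Xcl1 by 0.94 and Ccl3 by 0.63, while Ccl25 fell. Of 13 dendritic cell markers Ccl22 and the actin-bundling gene Fscn1 (0.79, held in 2 of 6 fits without 1 array) rose and 0 fell, with a median of -0.05 and array medians from -0.16 to 0.17. The defining dendritic cell genes Itgax (-0.04), Flt3 (-0.18) and Zbtb46 (0.05) lay near 0.

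Death and survival genes changed in a narrow set. Gadd45b, a stress sensor that acts on MAP kinase signalling, was the most raised of all named genes. It read 2.64, 3.43 and 4.25 and rose 11.2-fold (3.49, SE 0.21, adjusted p = 0.000389). Its relative Gadd45g rose by 0.76, the NF-kB-induced inhibitor of apoptosis Birc3 by 1.12 (0.47 by its other probe) and the inflammatory caspase gene Casp4 by 0.38, so that 4 of 27 caspase and other apoptosis genes rose and 0 fell (median 0.03). The calls of Gadd45g and Casp4 held in 3 and 2 of the 6 fits without 1 array. Of 14 Bcl2 family genes Bcl2l11 (Bim) alone was called. It read 0.88, 1.25 and 1.47 and rose 2.34-fold (1.23, SE 0.09, adjusted p = 0.00101). The p53-linked death genes Bbc3 (0.37) and Pmaip1 (0.37), the survival genes Bcl2 (0.30) and Mcl1 (-0.34) and the death receptor Fas (0.11) were not called. Of 15 p53 target genes 2 rose, the cell cycle inhibitor Cdkn1a (1.24, SE 0.12, adjusted p = 0.00338) and the kinase gene Plk2 (0.42), and 0 fell.

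NF-kB genes formed another raised group, with 6 of 15 higher, 0 lower and a median of 0.47. The subunit genes Nfkb2 (1.10, 1.45 and 2.12 at the lowest, median and highest array) and Rel (0.79, 1.5 and 2.26) rose 2.85-fold (SE 0.15, adjusted p = 0.00362) and 2.77-fold (SE 0.17, adjusted p = 0.00736). The inhibitors of the pathway that it induces, Nfkbia (0.85), Nfkbie (0.77) and Nfkbiz (0.89), and the adaptor gene Traf1 (0.80) rose too. Relb (1.07) and the deubiquitinase gene Tnfaip3 (0.47) were not called.

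Several further genes ranked with these. Stx11, a membrane fusion gene used in granule release, read 0.84, 2.23 and 2.46 and rose 4-fold (SE 0.21, adjusted p = 0.00548). Tnfrsf19, a TNF receptor family gene, read 1.40, 1.97 and 2.72 and rose 3.95-fold (SE 0.14, adjusted p = 0.00104). Pdcd1lg2, a ligand of the inhibitory receptor PD-1, read 1.10, 1.43 and 2.06 and rose 2.86-fold (SE 0.08, adjusted p = 0.000228). The pseudokinase gene Trib1 rose by 1.72 (SE 0.28, adjusted p = 0.0253) with array 1 at -0.21 and the other 5 at 1.95 or more, and its call held in 1 of the 6 fits without 1 array. Ndrg1, a stress- and hypoxia-linked gene, rose 2.77-fold by its first probe (SE 0.08, adjusted p = 0.000257) while its other probe stood at 0.04 (adjusted p = 0.872).

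Growth, metabolic and interferon-linked lists are given by their counts. Of 25 interferon-response genes 5 rose and 0 fell (median 0.20), led by the transcription factor genes Irf8 (1.30, SE 0.08, adjusted p = 0.00053) and Irf1 (0.93, SE 0.09, adjusted p = 0.00308). The GTPase genes Irgm1 (0.59) and Gbp2 (0.58) and the ubiquitin-like modifier gene Isg15 (0.56) followed. Of 23 Myc-linked and ribosome biogenesis genes 3 rose, Odc1 (0.51), Polr1b (0.44) and Wdr43 (0.38), and 0 fell (median 0.21). Of 35 cell cycle and replication genes the cyclin gene Ccnd2 rose by 0.64, and the replication genes Mcm2 (-0.59) and Ccne2 (-0.53) fell (median -0.04). The amino acid transporter gene Slc7a5 (0.69) was the single called member of 19 integrated stress response genes, the metallothionein gene Mt2 (0.85) of 14 glucocorticoid-response genes and Ndrg1 of 19 glycolysis and hypoxia genes. In 14 cholesterol synthesis genes and 9 Notch pathway genes 0 were called. The calls of Irgm1, Odc1, Polr1b, Wdr43, Mcm2, Ccne2 and Ccnd2 held in 3 or fewer of the 6 fits without 1 array.

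Among genes of the double-positive thymocyte itself 3 of 20 fell, 0 rose and 17 were not called (median -0.26). They were Arpp21 (-0.58, with its other probe at -0.91), the transcription factor Ets2 (-0.61) and the water channel gene Aqp11 (-0.53). The recombinase genes Rag1 (-1.16) and Rag2 (-0.71) and the sialyltransferase gene St6gal1 (-1.15) stood lower but were not called, and Cd4 (-0.16) and Cd8a (-0.11) lay near 0. Of 19 lineage and maturation genes Gata3, a CD4-lineage factor, rose by 0.56, and the homing integrin Itgb7 (-0.91, SE 0.07, adjusted p = 0.00183) and the quiescence and trafficking factor Klf2 (-0.63) fell. The calls of Gata3 and Klf2 held in 3 of the 6 fits without 1 array and that of Aqp11 in 2. The quiescence-linked genes Klf3 (-0.89) and Tob1 (-0.41) fell, 2 of 18 in their list, and both calls held in 2 of the 6 fits without 1 array. The chaperone genes Hspa1b (-0.94) and Hspa8 (-0.90) fell, 2 of 15 heat shock genes, and held in 3 and 1 of those fits. The T cell surface gene Cd7 read -1.15, -0.90 and -0.77 and fell 1.93-fold (SE 0.07, adjusted p = 0.00148).

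Prss16 and Ccl25, the most lowered of the named genes, are markers of cortical thymic epithelium, the stromal cells on which double-positive thymocytes are selected. Of 12 such markers 5 fell, 0 rose and 7 were not called (median -0.46, with array medians from -0.94 to -0.30). Prss16, a thymus-specific serine protease, read -2.20, -2.03 and -1.66 and fell 3.95-fold (-1.98, SE 0.10, adjusted p = 0.000163). Ccl25, the chemokine that draws Ccr9-bearing thymocytes, read -1.88, -1.48 and -1.26 and fell 2.92-fold (SE 0.10, adjusted p = 0.000682). Psmb11, a catalytic subunit of the thymoproteasome, read -1.68, -1.04 and -0.92 and fell 2.23-fold (SE 0.11, adjusted p = 0.00362). The epithelial keratin genes Krt8 (-0.99, SE 0.06, adjusted p = 0.000595) and Krt18 (-0.95, SE 0.12, adjusted p = 0.00892) fell too, and Foxn1 (-0.12), Ly75 (-0.44) and Dll4 (-0.49) were not called. On slides 13-5 to 13-8 alone 5 of the 12 were lower (5.21% of all probes there) and the list's median was -0.25.

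Markers of other cells that a thymus preparation can hold also moved. Of 15 macrophage markers 5 fell and 0 rose (median -0.32, array medians -0.35 to -0.07), the lipid carrier Apoe (-0.90), the complement genes C1qc (-0.58) and C1qb (-0.46), the protease Lgmn (-0.49) and the mannose receptor gene Mrc1 (-0.40), while Adgre1 (-0.25) and Cd68 (-0.35) were not called. The calls of Apoe, C1qc and C1qb held in 2 of the 6 fits without 1 array and that of Lgmn in 3. Of 11 erythroid markers 2 fell, the haem synthesis gene Alas2 (-1.32, SE 0.14, adjusted p = 0.00461) and Car2 (-0.57) (median -0.15, array medians -0.32 to -0.03). Of 15 endothelial and stromal markers 2 fell, Eng (-0.71) and Sparc (-0.62), and of 11 medullary epithelial markers 1 fell, Cldn4 (-0.50). The Car2, Sparc and Cldn4 calls held in 2, 4 and 1 of those fits. Of 13 B cell markers 0 were called (median -0.07). The granzyme gene Gzmb (0.98, SE 0.06, adjusted p = 0.000407) rose among 13 NK and innate T cell markers, and Cxcr2 (0.32) among 11 granulocyte markers, a call that held in 0 of the 6 fits without 1 array. The granulocyte list as a whole had a median of -0.12. On slides 13-5 to 13-8 its median was -0.35 with 5 of 11 lower and 1 higher (5.21% and 3.58% of all probes there). The part that a changed cell make-up had in the other gene groups was not tested. Xist, which is made from the inactive X chromosome and was looked at after its value was seen, fell by 0.82 (adjusted p = 0.00308). The Y-linked genes Kdm5d (0.45), Uty (0.17) and Eif2s3y (-0.12) were not called. Kdm5d was above 0 on all 6 arrays. Uty read -0.14 and 0.11 on slides 13-3 and 13-4 and 0.22 to 0.37 on slides 13-5 to 13-8. Eif2s3y read -1.09 and -0.57 on the former and -0.16 to 0.98 on the latter. Whether the RNAs differed in the sex of the mice was not tested.

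**Figure D2:**
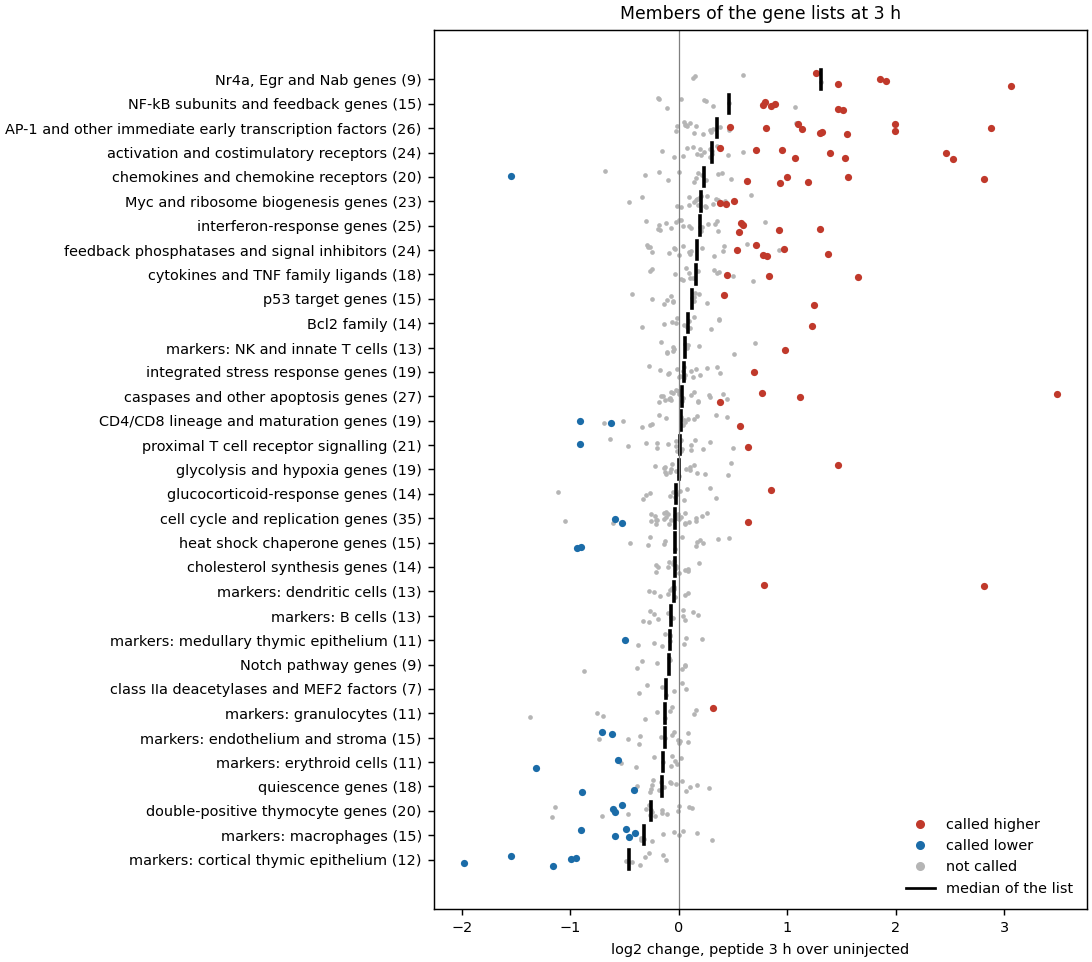
Log2 change of peptide 3 h over uninjected thymocytes (horizontal axis) for every measured member of the 33 gene lists (rows, with the number measured), with red and blue points for genes called higher and lower, grey points for the rest and a black bar for each list's median. The Nr4a, Egr and Nab list has the highest median, 1.31, and the cortical epithelium markers the lowest, -0.46 over 6 arrays (-0.25 on slides 13-5 to 13-8, where the granulocyte and double-positive lists are lower).

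Other large falls belonged to no cortical marker. Gas6, a ligand of the TAM receptors that take up dying cells, read -2.17, -1.45 and -1.16 and fell 2.88-fold (SE 0.13, adjusted p = 0.00203). The fatty acid desaturase gene Scd1 fell 2.28-fold (SE 0.10, adjusted p = 0.00197), Tada1, a subunit of a histone acetyltransferase complex, 2.28-fold (SE 0.08, adjusted p = 0.000568) and the thromboxane receptor gene Tbxa2r 2.08-fold (SE 0.14, adjusted p = 0.0119). The Ras family inhibitor Rasa3 (-0.95) and the glycolipid transfer gene Gltp (-0.88) fell too. Rasa3 was below 0 on all 6 arrays, with array 2 far from the rest at -2.19. The calls of Rasa3, Gltp and Tbxa2r held in 1, 2 and 3 of the 6 fits without 1 array. The largest fall of all belonged to a probe with no gene symbol in the annotation used here (M200005778), which read -4.05 and -3.80 on slides 13-3 and 13-4 and -2.69 to -2.37 on slides 13-5 to 13-8 (-3.01, SE 0.25, adjusted p = 0.00201). Of the series' own targets, Hdac7 ranged over -0.84, -0.47 and 0.16 (fitted -0.37, SE 0.14, adjusted p = 0.243) and Mef2d over -0.69, -0.40 and 0.36 (fitted -0.30, SE 0.14, adjusted p = 0.367). Neither was called, and 0 of 7 measured class IIa deacetylase and MEF2 genes were. On slides 13-5 to 13-8 alone 2 of the 7 were called lower, beside 5.21% of all probes there (1.21% over the 6 arrays). They were Hdac7 (-0.59, adjusted p = 0.0184) and Mef2d (-0.54, adjusted p = 0.00933). Hdac7 read 0.003 and 0.16 on slides 13-3 and 13-4 and -0.84 to -0.45 on slides 13-5 to 13-8. Mef2d read 0.04 and 0.36 on the former and -0.69 to -0.37 on the latter.

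The 3 h response was set against 6 h to ask which genes belonged to the first hours. The 3 peptide times were each hybridised against uninjected thymocytes, and the labels do not say whether it was the same RNA. Sex-linked genes varied among the arrays of 6 h and of 12 h, as given above. Their values are given side by side with a limma test of the difference. Slide numbers 13-5 and 13-6 also stand in titles of 6 h arrays, and 13-7 and 13-8 in titles of 12 h arrays. As a description of the arrays, 3 h arrays 1 and 2 resembled arrays 1 and 2 of 6 h of the same dye (r = 0.712 and 0.689 over probes) more than the other 3 h arrays. Of 16463 probes 22 differed (0.134%), 5 higher at 3 h (0.0304%) and 17 lower (0.103%). Slides 13-5 to 13-8 against slides 9 to 12 of 6 h, a restriction added after the data were seen, called 668, all 22 among them, and leaving out 1 array gave 11 to 38. Slide set as a fixed block, which put arrays 1 and 2 of each time apart from the rest, was also added after the data were seen. With it, and a dye term of its own in each set, 136 were called, all 22 among them.

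Myc and Ndrg1 led the genes that were higher at 3 h. Myc read 0.78, 1.16 and 1.37 (lowest, median and highest array) at 3 h and -0.01, 0.16 and 0.88 at 6 h, a difference of 0.88 (SE 0.15, adjusted p = 0.0417). Ndrg1 by its first probe read 1.17, 1.47 and 1.72 at 3 h and 0.14, 0.69 and 1.00 at 6 h (difference 0.86, SE 0.12, adjusted p = 0.00908). The nuclear corepressor Nrip1, by its first probe, stood at 0.39 at 3 h (0.06 by its other probe) and -0.41 at 6 h (difference 0.80), the protease gene Capn3 at 0.04 and -0.57 (difference 0.61) and the chromatin gene Epc1, by a probe that is not its first, at 0.18 and -0.39 (difference 0.57). Of these 5, Ndrg1 kept its call in all 12 fits that left out an array, Nrip1 in 5 and the other 3 in 2.

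The genes lower at 3 h than at 6 h were led by interferon-inducible GTPases. Tgtp1 read 0.17, 1.28 and 1.79 at 3 h and 2.87, 3.11 and 3.99 at 6 h (difference -2.05, SE 0.19, adjusted p = 0.0007). Gbp2 read 0.34, 0.59 and 0.76 at 3 h and 1.78, 1.87 and 2.14 at 6 h (difference -1.32, SE 0.09, adjusted p = 5.02e-05). The lowest 6 h array stood above the highest 3 h array for both, which were named for their difference between these same arrays. Gbp2b (-1.12), Irgm2 (-0.98) and Irgm1 (-0.90), GTPases of the same kind, the nucleic acid sensor Zbp1 (-0.93), the interferon signal transducer Irf9 (-0.87) and the receptor transporter Rtp4 (-0.86) differed in the same direction. Zbp1 and Irgm1 kept this call in 4 of 12 fits without 1 array and the other 6 genes in all 12. Over uninjected thymocytes 2.71% of all probes were called at 3 h, 4.57% at 6 h and 3.38% at 12 h. Of the 25 interferon-response genes 5 were called higher at 3 h (1.49% of all probes were), 14 at 6 h (2.03%) and 8 at 12 h (1.66%), with medians of 0.20, 0.52 and 0.83, and 4 of the 25 passed the test of the difference between 3 h and 6 h.

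**Figure D3:**
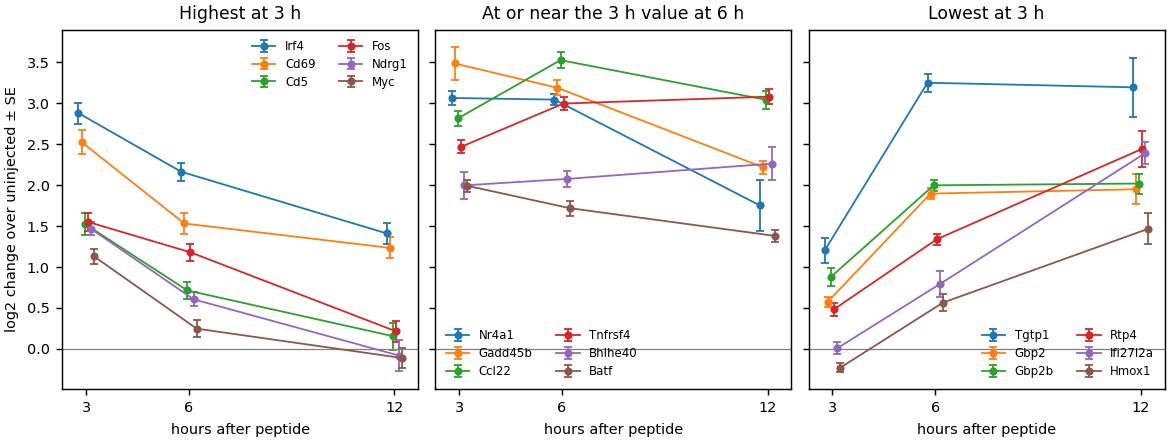
Fitted log2 change over uninjected thymocytes with its SE (vertical axis) at 3, 6 and 12 h after peptide (horizontal axis, 6 arrays a time) for 18 genes in 3 panels, chosen after their values were seen. Myc stands at 1.13, 0.25 and -0.11, Nr4a1 at 3.06, 3.05 and 1.75 and Tgtp1 at 1.20, 3.25 and 3.19.

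Against 12 h 214 probes differed (1.3%), 115 higher at 3 h (0.699%) and 99 lower (0.601%). The count was 893 without array 1 of 12 h and 865 without array 2 of 12 h, and 90 to 150 without 1 of the other arrays. It was 1141 with slide set as a fixed block, all 214 among them, and 2266 on slides 13-5 to 13-8 against slides 13 to 16. Irf4 read 2.41, 2.82 and 3.43 at 3 h and 1.11, 1.31 and 2.12 at 12 h (difference 1.47, SE 0.20, adjusted p = 0.00697). Cd5 read 1.23, 1.41 and 2.18 at 3 h and -0.34, -0.03 and 0.74 at 12 h (difference 1.37, SE 0.22, adjusted p = 0.013). Fos read 1.09, 1.5 and 2.03 at 3 h and -0.06, -0.01 and 1.02 at 12 h (difference 1.34, SE 0.22, adjusted p = 0.0153). In these 3 genes no 12 h array reached the lowest 3 h array. They were named for large differences between these same arrays, and how many of all probes were so separated was not counted. Ndrg1 by its first probe (difference 1.55) and the CD40 ligand gene Cd40lg (1.30) were also higher at 3 h. So were the microtubule regulator Stmn1 (1.32), the kinase gene Stk26 (1.49) and the nucleolar gene Nolc1 (1.98). The last 3 were not called at 3 h (-0.02, 0.15 and 0.18). Cd40lg was not called at 3 h either (0.48, adjusted p = 0.094) and stood at -0.81 at 12 h. Nolc1 read 0.63 and 1.10 on arrays 1 and 2 and -0.28 to -0.002 on arrays 3 to 6. Stmn1 read -0.73 and 0.93 on arrays 1 and 2 and -0.32 to 0.13 on arrays 3 to 6. The Nolc1 and Stk26 calls held in 2 of 12 fits without 1 array and the others in all 12. Of the 23 Myc-linked and ribosome biogenesis genes 8 were higher at 3 h than at 12 h and 0 lower (medians 0.21 at 3 h and -0.49 at 12 h).

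Ifi27l2a and Hmox1 were among the genes lower at 3 h than at 12 h. The interferon-induced gene Ifi27l2a read -0.36, -0.05 and 0.62 at 3 h and 1.89, 2.43 and 2.94 at 12 h (difference -2.38, SE 0.16, adjusted p = 3.97e-05). The haem-degrading enzyme gene Hmox1 read -0.28, -0.23 and -0.18 at 3 h and 0.77, 1.46 and 2.21 at 12 h (difference -1.70, SE 0.20, adjusted p = 0.00604). Neither gene's groups overlapped, but both were named for their difference between these same arrays. Rtp4 (-1.96), the antiviral membrane gene Ifitm3 (-1.84) and Tgtp1 (-1.99) differed in the same direction, and the Tgtp1 call held in 4 of 12 fits without 1 array. Tada1 stood at -1.19 at 3 h, -0.43 at 6 h and 0.92 at 12 h (difference between 3 h and 12 h -2.10, SE 0.27, adjusted p = 0.00604). Krt18 stood at -0.95, -0.43 and 0.78 (difference -1.73, SE 0.31, adjusted p = 0.0178, called in 8 of 12 fits without 1 array). Prss16, by contrast, stood at -1.98, -1.84 and -1.96 over the 3 times.

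Several of the most raised genes were as high or higher later. Ccl22 stood at 2.81 at 3 h, 3.53 at 6 h and 3.04 at 12 h, Tnfrsf4 at 2.47, 3.00 and 3.08, and Bhlhe40 at 2.00, 2.08 and 2.26 over the 3 times. Of these 3 genes Tnfrsf4 alone was called as different, at 12 h (difference -0.61, SE 0.12, adjusted p = 0.0333), a call lost on the later slides (adjusted p = 0.0543). Ccl22 gave adjusted p = 0.101 against 6 h and 0.506 against 12 h, and 0.015 against 6 h with slide set as a fixed block. Nr4a1 stood at 3.06, 3.05 and 1.75, and its difference from 12 h was not called (1.31, SE 0.33, adjusted p = 0.0803). It was called with slide set as a fixed block (1.31, SE 0.23, adjusted p = 0.00837) and on the later slides alone (1.77, adjusted p = 4.13e-05). Gadd45b stood at 3.49, 3.19 and 2.22 and Cd69 at 2.53, 1.53 and 1.23, both called against 12 h (differences 1.27 and 1.29, adjusted p = 0.0241 and 0.0171). Against 6 h neither was called, but with slide set as a fixed block Cd69 was (0.99, adjusted p = 0.0282). Bcl2l11 stood at 1.23, 0.74 and 0.85 with neither difference called.

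PMA and ionomycin activate protein kinase C and calcium signalling without the receptor, and the empty-virus hybridoma arrays share no RNA with the thymocyte arrays. They differ from them in cell, stimulus, setting and time. The hybridoma ratio also includes the empty virus, so values given as with PMA and ionomycin are those of virus and stimulus together. Subtracting the empty-virus MSCV_A arrays kept 1161 of the 1747 calls of the direct test below and reversed 4. Over untreated hybridoma cells 2650 probes were called (16.1%), 1254 higher (7.62%) and 1396 lower (8.48%). Of the 246 probes higher after peptide 93 (37.8%) were also higher with PMA and ionomycin, which is 7.42% of the 1254, and 16 were lower. Of the 200 lower after peptide 48 (24%) were lower there too, 3.44% of the 1396, and 17 were higher. The log2 changes correlated at r = 0.200 over the 16463 probes, which share their array platform and are not independent replicates.

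Nr4a1 (log2 change 3.06 with peptide and 4.30 with PMA and ionomycin), Irf4 (2.88 and 3.45) and Gadd45b (3.49 and 2.63) rose with both stimuli. So did Egr1 (1.91 and 3.06), Egr2 (1.86 and 3.97) and Tnf (1.66 and 2.87). A direct test of the difference between the 6 peptide arrays and the 8 stimulated hybridoma arrays called 1747 probes (10.6%), 843 higher with peptide (5.12%) and 904 lower (5.49%). Ccl22 read 2.42, 2.91 and 3.06 with peptide and -0.03, 0.32 and 0.59 with PMA and ionomycin (difference 2.54, SE 0.13, adjusted p = 3.35e-08). Batf read 1.80, 1.98 and 2.22 with peptide and -0.41, -0.14 and 0.09 with PMA and ionomycin (difference 2.12, SE 0.09, adjusted p = 3.18e-09). Cd69 read 1.65, 2.70 and 2.80 with peptide and -0.13, 0.50 and 1.30 with PMA and ionomycin (difference 2.02, SE 0.25, adjusted p = 0.000169). Tnfrsf19 (difference 2.06) was higher with peptide too. So was Ndrg1 by its first probe (2.32), which fell with PMA and ionomycin (-0.85, adjusted p = 0.0182). In the T cell receptor gamma gene Trgv2 (2.12), the mast cell protease Cpa3 (1.92) and the stress pseudokinase Trib3 (1.86) the hybridoma gave the difference, with log2 changes of -1.88, -2.25 and -1.85 with PMA and ionomycin beside 0.25, -0.33 and 0.01 with peptide.

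In the other direction genes rose in the hybridoma that were not called or rose less after peptide. The chemokine gene Ccl1 read -0.13, 0.10 and 0.44 with peptide and 2.49, 4.82 and 7.79 with PMA and ionomycin (difference -4.80, SE 0.79, adjusted p = 0.00145). Tnfsf11 stood at 0.44 with peptide and 4.16 with PMA and ionomycin (difference -3.72, SE 0.18, adjusted p = 2.35e-08), and Nab2 at 1.26 and 4.27 (difference -3.0, SE 0.30, adjusted p = 2.56e-05). The apoptosis-linked Phlda1 (difference -3.45), the repressor Bcl6 (-3.17), the secreted signalling gene Ccn4 (-3.05), the kinase Sgk1 (-2.93) and the zinc exporter Slc30a1 (-2.78) were not called with peptide (-0.25 to 0.13). Bcl6 read 0.48 and 0.25 on arrays 1 and 2 and was called lower on slides 13-5 to 13-8 (-0.56, adjusted p = 0.0101). Each of these 16 differences kept its call in all 14 fits that left out 1 array.

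**Figure D4:**
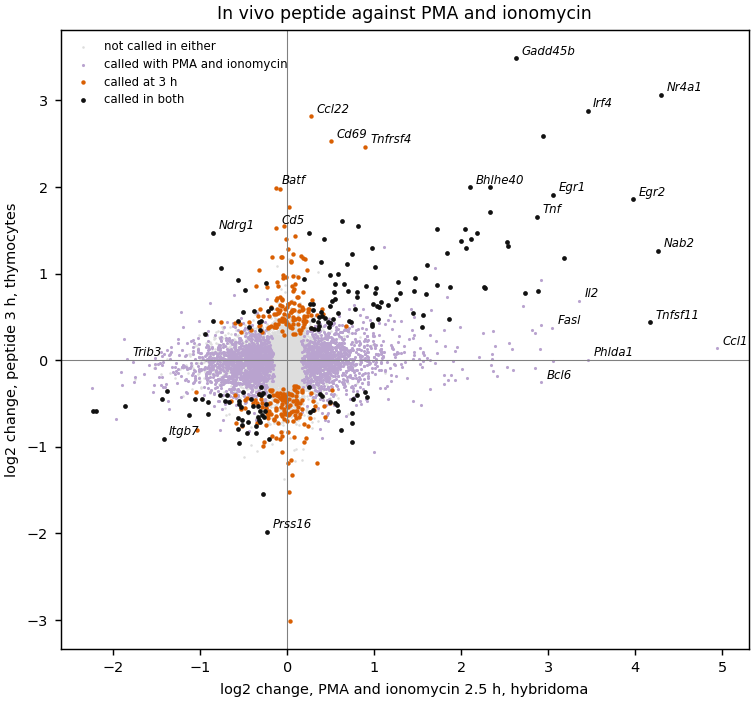
Log2 change with peptide at 3 h in thymocytes (vertical axis, 6 arrays) against that with PMA and ionomycin at 2.5 h in the DO11.10 hybridoma (horizontal axis, 8 arrays) for 16463 probes, coloured by where they were called. Nr4a1, Irf4 and Egr2 lie at the upper right, and Ccl22, Cd69 and Batf lie high on the vertical axis near 0 on the horizontal one.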

How the data were processed

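Per the labels' protocols, RNA came from an acid phenol and guanidinium extraction, and its aminoallyl cDNA was dyed with Cy3 or Cy5. The authors deposited a ratio on a log scale, taken here as log2, for each of 16463 probes on every array, with 0 missing. How these were corrected and normalized, and their log base and direction, is not stated in the sources used here. Dye orientation came from the array titles, because both channels carry the same dye label.

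Each array was centred on its median. limma 3.58.1 (lmFit and eBayes, R 4.3.3, statmod 1.5.0) was fitted per probe, with a dye term, against 0 or between groups, and p-values were adjusted by Benjamini-Hochberg over all probes. No label ties an array to an animal of its own. The p-values therefore reflect array-to-array spread, possibly technical. Of the probes 14551 had 1 gene symbol in the platform's annotation (13409 symbols), 6 several and 1906 none, and 14272 matched the RefSeq gene table. Where a gene had several probes, the earliest in the table stands for it.

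Named genes are the 20 most raised and the 20 most lowered single-symbol called probes that kept their direction on at least 5 of 6 arrays, up to 4 called members of each of 33 lists, the Nr4a, Egr and Nab genes, Bcl2l11, Cd69, Cd5, Pdcd1, Hdac7 and Mef2d, and the 8 highest and 8 lowest of each difference. Further list members are named with their values. The members and lists were chosen with earlier results of these data known.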

Additional observations from a re-analysis of the deposited data

Results flagged for a closer look

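Among 95 named genes, 9 had 1 array whose gap to the nearest other array exceeded Dixon's critical share of the range for 6 arrays. Chance gives about 1 in 20. Array 1 was the far one for Trib1 (-0.21), Krt18 (-0.27), Dusp1 (-0.21), Dusp4 (-0.088) and C1qb (-0.11), each nearer to 0 or on the other side of it than the rest. Array 2 was far for Rasa3 (-2.19) and Egr3 (1.01), array 4 for Ccne2 (-0.88) and array 6 for Cd69 (1.65). Arrays 1 and 2 are slides 13-3 and 13-4, and the part of the slide set in these values was not tested.

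The limma test of a difference between groups set these genes apart, with 3 h minus the other group as the sign. Against 6 h they were Myc (0.88), Ndrg1 (0.86), Nrip1 (0.80), Capn3 (0.61), Epc1 (0.57), Tgtp1 (-2.05), Gbp2 (-1.32), Gbp2b (-1.12), Irgm2 (-0.98), Zbp1 (-0.93), Irgm1 (-0.90), Irf9 (-0.87) and Rtp4 (-0.86). Against 12 h they were Nolc1 (1.98), Ndrg1 (1.55), Stk26 (1.49), Irf4 (1.47), Cd5 (1.37), Fos (1.34), Stmn1 (1.32), Cd40lg (1.30), Ifi27l2a (-2.38), Tada1 (-2.10), Arhgap20 (-2.02), Tgtp1 (-1.99), Rtp4 (-1.96), Ifitm3 (-1.84), Krt18 (-1.73) and Hmox1 (-1.70). Against PMA and ionomycin in the hybridoma they were Ccl22 (2.54), Ndrg1 (2.32), Trgv2 (2.12), Batf (2.12), Tnfrsf19 (2.06), Cd69 (2.02), Cpa3 (1.92), Trib3 (1.86), Ccl1 (-4.80), Tnfsf11 (-3.72), Phlda1 (-3.45), Bcl6 (-3.17), Ccn4 (-3.05), Nab2 (-3.0), Sgk1 (-2.93) and Slc30a1 (-2.78).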

How the results depend on the processing

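The 446 calls at 3 h became 18 with the 3 Cy3 arrays alone, 31 with the 3 Cy5 arrays alone (29 shared), 1447 on slides 13-5 to 13-8, 31 with treat against a 1.5-fold change and 100 to 654 without 1 array. No other setting moved that count past 1.5 times, and 0 of the 446 changed sign under any setting. The 87 named genes that were called were all called on slides 13-5 to 13-8 too, and 44 of them whichever array was left out. Egr3, not called, turned to -0.13 with the Cy5 arrays alone and ran from -0.019 without array 2 to 0.212 without array 6, and the first Tnfrsf9 probe to -0.065 with the Cy5 arrays alone. The 22 calls against 6 h became 668 on the later slides, 13 without the dye term and 11 to 38 without 1 array, 136 with slide set as a fixed block, and 20 (7 shared) without the slide numbers that both times bear. The 214 calls against 12 h became 2266 on the later slides, 1632 without the shared slide numbers, 325 with the slide sets as a random block, 1141 with slide set as a fixed block and 90 to 893 without 1 array. The 1747 calls against PMA and ionomycin ran from 1272 to 1949. Subtracting the 12 MSCV_A arrays gave 1545 calls, with 1161 of the 1747 shared and 4 reversed. Quantile normalization reversed 1 of the 1747. Single-dye fits have 3 arrays, and the other causes were not tested. No paired analysis was possible because replicate numbers follow only accession order, and the slide sets, which span the times, entered as the blocks above. Signal over background was not measured, so dim probes could not be left out.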
